A study of Mus musculus with 12 samples.

Results

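The genes described here encode the subunits of potassium channels, other than Kcnq1 and Kcne1. They are the 88 gene symbols of 22869 in the deposited table that begin with Kcn, go on with a letter code and end in a number. Kcnq1, Kcne1, Kcne2 and Kcnj13 were left out by that rule. Each gene was represented by the transcript row that held the most reads over the 6 embryos, and no difference between genotypes entered that choice of row. The set of genes, with its exclusions, was chosen with earlier results of these data known.

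RNA-seq was made from the epithelium of the whole cochlea of C57BL/6 mouse embryos at embryonic day 16.5. The control group was 3 Esrp1+/+ (wild-type) embryos and the knockout group was 3 Esrp1-/- embryos, in which a splicing regulator of epithelial cells is deleted. How the allele was made is not given in the labels. Collagenase P was used to take off mesenchyme before the hand dissection of the epithelium. The 2 cochleae of each embryo were pooled, and each embryo gave 2 libraries that the deposited table holds as 1 column. The comparison therefore asks which of these genes differ in RNA level between Esrp1-/- and wild-type epithelium, with the embryo as the replicate.

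Potassium channels let potassium ions cross the membrane down their electrochemical gradient. Voltage-gated channels open on depolarisation, calcium- and sodium-activated channels open when those ions enter the cell, inward rectifiers pass current best near the resting potential, and two-pore-domain channels carry a background leak. In the cochlea, potassium is the ion that enters hair cells during hearing, and channels of supporting cells and of the stria vascularis return it to the endolymph. The channels differ in their gates but share the pore: a short stretch with a glycine, then a tyrosine or phenylalanine, then a glycine lines the selectivity filter.

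That shared stretch was searched for in the coding sequences of all 88 genes, from GENCODE M21 on GRCm38, the assembly that mm10 represents. The pattern searched was 5 codons in frame, for threonine or serine, any amino acid, glycine, tyrosine or phenylalanine, and glycine. It was present in 75 of 75 genes of pore-forming or silent subunits and in 0 of 13 genes of auxiliary subunits, against 569 of 21562 genes with a coding sequence, or 2.64%. Of the 14 two-pore-domain genes, 11 held it at 2 places and 3 (Kcnk1, Kcnk6 and Kcnk7) at 1, while each of the other 61 held it once. The stretches below belong to pore-forming genes that stand apart most between the genotypes. Each shows 33 bases of the coding strand with the 3 codons for glycine, tyrosine or phenylalanine, and glycine in capitals, and coordinates are on GRCm38.
Kcna5, chr6:126533736-126533768, minus strand: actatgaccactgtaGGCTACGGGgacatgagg
Kcna4, chr2:107296486-107296518, plus strand: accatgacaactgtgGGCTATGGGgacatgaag
Kcna1, chr6:126642219-126642251, minus strand: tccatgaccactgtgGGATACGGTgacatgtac
Kcnc4, chr3:107447790-107447822, minus strand: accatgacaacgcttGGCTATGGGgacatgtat
Kcnk2, second pore, chr1:189256572-189256604, minus strand: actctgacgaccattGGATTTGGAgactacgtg
Kcnk5, second pore, chr14:20144639-20144671, minus strand: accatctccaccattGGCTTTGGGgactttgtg
Kcna5 and Kcna4 shared 28 of these 33 bases, Kcna5 and Kcna1 shared 25, and Kcna5 shared 24 with Kcnc4 and 19 with Kcnk2. Of these Kv1 relatives, Kcna5 and Kcna4 were higher and Kcna1 was lower in each of the 3 knockout embryos than in any control, as the values below show.

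Depth was 12547301 to 21568516 reads per embryo. Esrp1, the deleted gene, was at 102 to 197 CPM (reads relative to the library size, scaled by TMM) in the controls and 27.2 to 39.1 CPM in the knockouts, and passed the test with a log2 fold change of -2.05 ± 0.26 (SE; adjusted p = 0.0354 by edgeR's quasi-likelihood test). By the same test Kcne1 was lower by -4.67 ± 0.45 on the log2 scale (adjusted p = 0.0137), while Kcnq1 was at -0.91 ± 0.33 with overlapping groups (adjusted p = 0.808). Epithelial markers were high in all 6 embryos, from 1250.34 to 1783.95 CPM summed over 8 genes in 5 embryos and 2206.56 CPM in control 1. Markers of other cells were present too: the summed level of 6 mesenchyme genes was 809.81 to 1262.38 CPM and that of 8 neuron genes 110.81 to 917.26 CPM. In such bulk samples fewer cells of a type and less RNA per cell cannot be told apart. Control 1 stood apart in several lists: beside the highest epithelial sum it had 110.81 CPM of neuron markers against 525.73 to 917.26 in the other 5 embryos, 40.99 CPM of macrophage markers against 87.93 to 123.43, and 901.13 CPM of immediate early genes against 69.41 to 286.19. It was also lowest for the mesenchyme and pericyte markers. Knockouts 2 and 3 alone expressed the Y-linked gene Ddx3y, at 94.97 and 81.87 CPM against at most 0.907 in the other 4. Xist was at 1098 to 1807 CPM in the controls and knockout 1, and at 0.268 and 0.2 CPM in knockouts 2 and 3. No control expressed Ddx3y, so sex and genotype cannot be told apart for knockouts 2 and 3. A fit with the Xist level as a covariate therefore rests its genotype difference largely on knockout 1 against the controls.

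Of the 88 potassium channel genes, 17 reached a mean of 1 FPKM (the authors' fragment count scaled by transcript length and library size). Another 43 lay between 0.1 and 1, and 28 lay below 0.1. The same counts over all genes are not given here, so these levels are not set against those of other genes. Kcnk1, a two-pore-domain channel of epithelia, was highest at a mean of 7.72 FPKM, followed by Kcnmb4, an auxiliary subunit of the large-conductance calcium-activated channel, at 6.36 FPKM and the voltage-gated subunit Kcna6 at 3.23 FPKM. These 3 genes made up 13.87%, 11.42% and 5.804% of the FPKM summed over all 88. That sum was 55.8 ± 10.7 FPKM (SD, n = 3) in controls and 55.5 ± 5.60 in knockouts, so the total differed by less than the spread between embryos. Auxiliary subunits made up 27.33% of it, two-pore-domain channels 19.65%, Kv1 to Kv4 subunits 17.64%, inward rectifiers 11.69%, KCNQ channels 8.225%, the EAG family 7.876%, calcium- or sodium-activated channels 4.977% and silent subunits 2.617%.

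**Figure D1:**
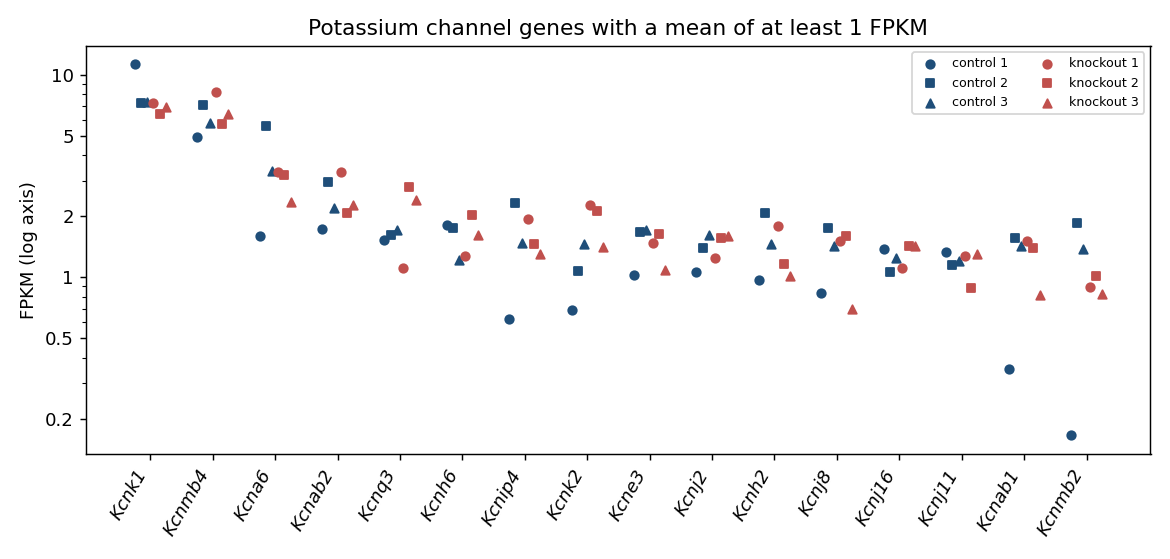
Level of 16 of the 17 potassium channel genes with a mean of at least 1 FPKM. Each point is 1 embryo (blue controls, red knockouts, shape by embryo number) on a log axis of FPKM, genes ordered by their mean: Kcnk1 and Kcnmb4 lead, and control 1 lies lowest for Kcna6, Kcnip4, Kcnab1 and Kcnmb2.

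Of all 22869 genes, 14717 had enough reads to be tested and 4361 had no read. Of the 88 potassium channel genes, 64 had enough reads to be tested. The other 24 were not: 19 had from 1 to 70 reads over the 6 embryos, and 5 had none, namely Kcnk4, Kcnk15, Kcnk16, Kcnk18 and Kcnmb3. A count of 0 allows a level of up to 0.136 to 0.229 CPM, depending on the embryo's depth, and covers counting error only. The largest total among the untested genes was that of Kcna10, a voltage-gated subunit known from hair cells, whose 70 reads fell as 3, 6 and 4 in controls 1, 2 and 3 and 54, 3 and 0 in knockouts 1, 2 and 3. That is 4.12 CPM in knockout 1 and at most 0.272 CPM in each of the other 5 embryos. Of the 6 hair cell markers in the table, Otof and Gfi1 were also highest in that embryo. Otof was at 29.8 CPM there and 1.13 to 6.90 in the others, and Gfi1 at 11.3 against 1.93 to 4.58. Atoh1, Pou4f3 and Myo7a lay within the range of the others, and Myo6 was lowest there. The sum over the 6 was 279.1 CPM there and 225.31 to 310.45 in the others, most of it Myo6 (167 to 221 CPM). The part of hair cells in the Kcna10 level was not tested.

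None of the 64 genes passed the threshold of 0.05 on the adjusted p (edgeR's quasi-likelihood test), where 22 of all 14717 genes tested passed, or 0.149% (0.0815% higher and 0.0679% lower in the knockouts). DESeq2 called 0 of the 74 potassium channel genes it tested, against 1.04% of all genes. At an unadjusted p under 0.05 there were 6 of 64 (9.38%), 4 higher and 2 lower in the knockouts, against 4.77% of all genes, 2.87% higher and 1.9% lower. The median log2 fold change was -0.06 against 0.00 over all genes, with 27 genes positive and 37 negative. The tests were less precise than for most genes: the median standard error was 0.37 against 0.19, and the 95% interval lay within 2-fold either way for 24 of 64 genes (37.5%) against 79% of all genes. For the other 40 the interval reached past 2-fold, so that a difference of that size was not bounded at this depth and number of embryos.

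In 9 of the 64 genes every knockout embryo lay on one side of every control embryo, or 14.1%, against 9.84% of all genes. Kcna4, Kcna5, Kcnip1, Kcne4, Kcnk2 and Kcnk5 were higher in all 3 knockouts (the background for that direction is 5.4%), and Kcnq5, Kcna1 and Kcnc4 were lower in all 3 (background 4.44%). The exact permutation p of each was 0.1, the smallest that 3 embryos against 3 allow, a value that follows from the lack of overlap itself. These counts stand a few genes above a wide background, and none of the 9 passed the adjusted threshold.

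**Figure D2:**
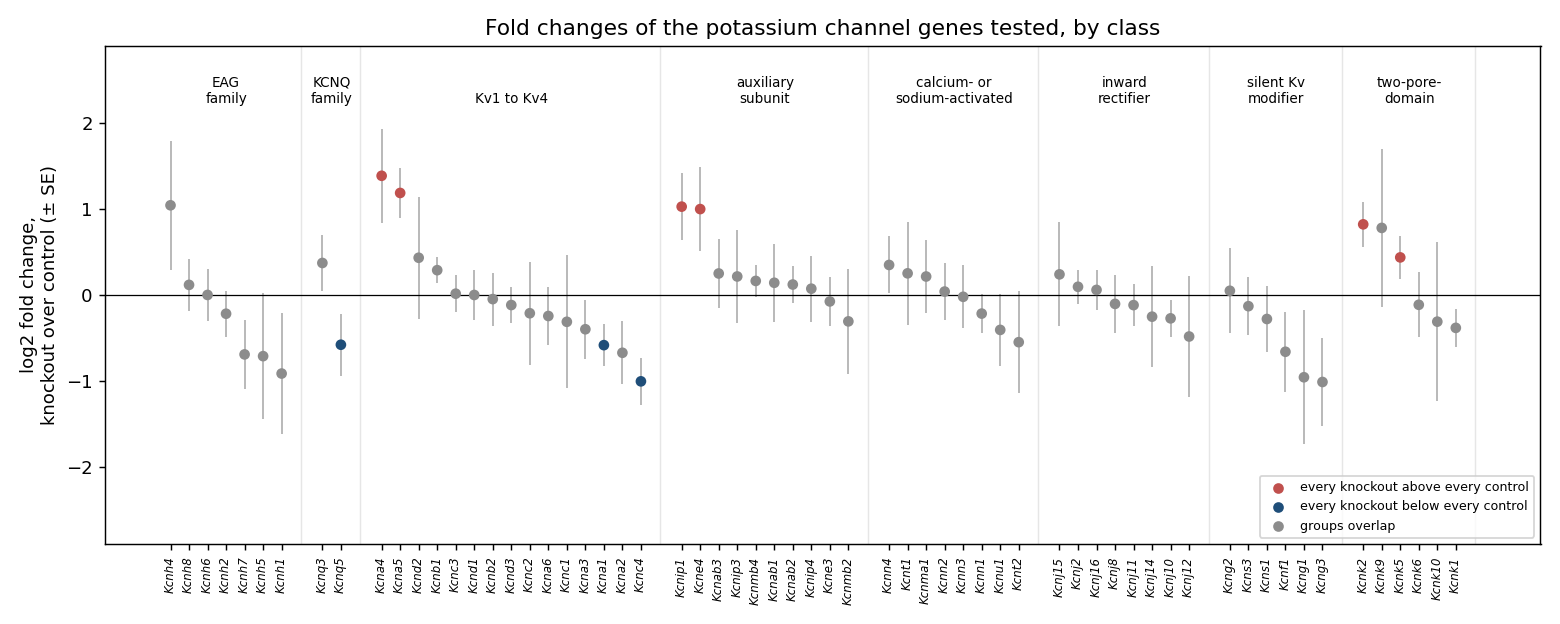
Log2 fold change, knockout over control, of 62 of the 64 potassium channel genes tested, by class, with bars for the standard error. Red marks the 6 genes with every knockout above every control, blue the 3 with every knockout below, grey 53 whose groups overlap. Values run from -1.01 (Kcng3) to 1.39 (Kcna4), and no gene passed the adjusted threshold.

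The Kv1 to Kv4 subunits, which form the classical voltage-gated channels, held 4 of the 9 separated genes and 4 of the 6 with an unadjusted p under 0.05. Either count is 26.7% of the 15 tested, against 9.84% of all genes separated and 4.77% with such a p. In each count 2 were higher and 2 lower in the knockouts, and the class was not tested as a set. Of 17 genes 15 were tested, 5 with a positive and 10 with a negative fold change, and the median was -0.12. Kcna5 encodes Kv1.5, the ultrarapid delayed rectifier of heart and smooth muscle. It was at 2.76, 2.00 and 2.42 CPM in controls 1, 2 and 3 and at 6.18, 4.19 and 6.01 CPM in knockouts 1, 2 and 3. The highest control lay well under the lowest knockout, and the group means were 2.39 ± 0.382 and 5.46 ± 1.10 (SD, n = 3). Its log2 fold change was 1.19 ± 0.29 (95% interval 0.53 to 1.85), with the smallest adjusted p of all 64 genes, 0.299 by edgeR and 0.0512 by DESeq2. Over all alternative settings that adjusted p ran from 0.0512 to 0.837. The gene lies at chr6:126532551-126535555.

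Kcnc4 encodes Kv3.4, a fast voltage-gated subunit that inactivates quickly. It was at 4.20, 5.53 and 3.99 CPM in the controls and 2.13, 2.42 and 2.27 CPM in the knockouts. The 3 knockouts lay close together below the 3 controls (4.57 ± 0.838 against 2.27 ± 0.141, SD, n = 3). The log2 fold change was -1.01 ± 0.28 (95% interval -1.64 to -0.38), with an adjusted p of 0.457 by edgeR and 0.188 by DESeq2. Over all alternative settings it ran from 0.17 to 1.

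Kcna1 encodes Kv1.1, an axonal subunit that limits repetitive firing. It was at 9.15, 15.8 and 10.8 CPM in the controls and 7.55, 8.80 and 7.54 CPM in the knockouts. The groups were narrowly apart, and control 2 was the highest embryo. The log2 fold change of -0.58 ± 0.24 (edgeR adjusted p = 0.983) was -0.33 without control 2. Kcna4 encodes Kv1.4, a rapidly inactivating subunit, and rested on few reads: 7, 10 and 11 in the controls and 30, 19 and 10 in the knockouts. In CPM these were 0.439, 0.454 and 0.593 against 2.29, 1.02 and 0.667, so that knockout 3 lay just above the highest control. Its log2 fold change of 1.39 ± 0.55 (edgeR adjusted p = 0.907) was 0.76 without knockout 1. With the Xist level as a covariate, a fit that rests largely on knockout 1, it was 2.27.

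The remaining Kv1 to Kv4 subunits overlapped between the groups. Kcna6, the most abundant of them, ran from 24.7 to 75.6 CPM in the controls and 35.7 to 44.6 in the knockouts, a log2 fold change of -0.25 ± 0.34. The Kv4 subunits Kcnd1, Kcnd2 and Kcnd3 were at -0.00, 0.43 and -0.12. Of the neighbours within 500 kb, chromosome 6 held Kcna5 (1.19), Kcna1 (-0.58) and Kcna6 (-0.25), and chromosome 3 held Kcna3 (-0.40), Kcna2 (-0.67) and Kcnc4 (-1.01), with the untested Kcna10 between them. In all, 27 of the 88 genes stood in 11 such clusters.

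Silent subunits form no channel alone and modify the Kv2 channels they join. Of 10 genes 6 were tested, 1 positive and 5 negative, with a median of -0.47 and no separated gene. Kcng3 had the smallest unadjusted p among them, 0.0812, at 1.63, 1.04 and 0.808 CPM in the controls and 0.534, 0.322 and 0.867 in the knockouts. Knockout 3 overlapped the controls, and the log2 fold change was -1.01 ± 0.51 (edgeR adjusted p = 0.994). Kcns3, the most abundant, was at -0.13 ± 0.34.

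The EAG family includes Kcnh2, the channel that repolarises the heart. Of its 8 genes 7 were tested, 2 positive and 5 negative, and none was separated. Kcnh2 was at 10.8, 20.5 and 14.6 CPM in the controls and 16.8, 11.8 and 11.1 in the knockouts, with a log2 fold change of -0.22 ± 0.27. Kcnh6, the most abundant by FPKM, overlapped throughout with a fold change of -0.00 ± 0.30. Kcnh7, with the smallest unadjusted p of the family (0.118), was at -0.69 ± 0.40, and at -0.37 without control 2 and -1.16 with Xist as a covariate.

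KCNQ channels carry slow currents that damp excitability. Kcnq5, a subunit of the M current, was at 9.71, 10.4 and 12.4 CPM in the controls and 3.28, 9.23 and 9.14 in the knockouts. Knockouts 2 and 3 lay just under the lowest control and knockout 1 far under it. The log2 fold change of -0.58 ± 0.36 (edgeR adjusted p = 0.994) was -0.25 without knockout 1. With the Xist level as a covariate, a fit that rests largely on knockout 1, it was -1.80. Kcnq3, a partner of Kcnq5 in that current, was at 11.7, 10.8 and 11.7 CPM in the controls and 7.17, 19.3 and 17.6 in the knockouts. Its 2 highest embryos were knockouts 2 and 3, those that expressed Ddx3y, and its log2 fold change of 0.37 ± 0.33 was -0.74 in the fit with Xist. That value, too, rests largely on knockout 1 against the controls. No control expressed Ddx3y, so sex and genotype cannot be told apart for knockouts 2 and 3. The part of sex in the level of Kcnq3 was not tested.

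All 8 calcium- or sodium-activated channel genes were tested, 4 positive and 4 negative, with a median of 0.01. None was separated. Kcnma1, the large-conductance channel of mature hair cells, was at 1.75, 4.49 and 3.99 CPM in the controls and 5.57, 3.81 and 2.60 in the knockouts, a log2 fold change of 0.21 ± 0.42. Kcnn4, an epithelial and blood cell channel with the smallest unadjusted p of the class, was at 0.35 ± 0.33, a value that was 0.003 without knockout 1 and 0.90 with Xist as a covariate. Kcnn2, the small-conductance channel at efferent synapses on hair cells, was at 0.04 ± 0.33.

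Of 14 inward rectifier genes 8 were tested, 3 positive and 5 negative, with no separated gene. Kcnj10 encodes Kir4.1, the channel of strial intermediate cells on which the endocochlear potential depends. It was at 8.77, 10.2 and 10.1 CPM in the controls and 9.45, 6.55 and 8.07 in the knockouts, or 9.67 ± 0.777 against 8.03 ± 1.45 (SD, n = 3). Knockout 1 lay among the controls and the other two below them. The log2 fold change was -0.27 ± 0.21 (95% interval -0.76 to 0.21; edgeR adjusted p = 0.994). It was -0.14 without knockout 2, -0.42 without knockout 1, -0.48 without both embryos numbered 1 and -0.02 with Xist as a covariate. The sum over 6 markers of those melanocyte-derived cells was 207.95, 120.53 and 127.39 CPM in controls 1, 2 and 3. It was 135.7, 64.21 and 64.92 CPM in knockouts 1, 2 and 3. Control 1 had the highest sum but the lowest Kcnj10 of the controls. Among the knockouts, knockout 1 was highest and knockout 2 lowest in both. The part of those cells in the Kcnj10 level was not tested. Kcnj16, its usual partner, was at 0.06 ± 0.23, Kcnj2, the most abundant of the class, at 0.09 ± 0.20, and Kcnj8, the vascular pore of ATP-sensitive channels, at -0.10 ± 0.34.

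Two-pore-domain channels were tested in 6 of 14 genes, 3 positive and 3 negative. Of these, 2 were separated (33.3%, against 9.84% of all genes). Kcnk2 encodes TREK-1, which opens on membrane stretch. It was at 6.46, 8.80 and 12.1 CPM in the controls and 17.8, 17.6 and 12.9 in the knockouts. Knockout 3 lay close above control 3 and the other knockouts well above all controls (9.11 ± 2.82 against 16.1 ± 2.76, SD, n = 3). Its log2 fold change was 0.82 ± 0.26 (95% interval 0.23 to 1.41; unadjusted p = 0.0119, edgeR adjusted p = 0.624).

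Kcnk5 encodes TASK-2, an alkali-sensitive channel of transporting epithelia. It was at 4.64, 5.35 and 7.87 CPM in the controls and 7.93, 8.0 and 8.27 in the knockouts, so that control 3 nearly met the knockouts. The log2 fold change of 0.44 ± 0.25 was 0.29 without control 1 and 0.69 without control 3. Kcnk1, the most abundant potassium channel gene, was at 63.0, 35.6 and 37.0 CPM in the controls and 34.4, 32.3 and 37.1 in the knockouts. Only control 1 stood apart, and the log2 fold change of -0.38 ± 0.22 (95% interval -0.89 to 0.12) was -0.07 without it. That embryo also stood apart in several marker lists at once, and the part of each in the Kcnk1 level was not tested.

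Auxiliary subunits set the gating, trafficking and abundance of the pores. Of 13 genes 10 were tested, 8 positive and 2 negative, with a median of 0.15. Of these, 2 were separated (20%, against 9.84% of all genes), both higher in the knockouts. Kcnip1 encodes a calcium-binding subunit of Kv4 channels. It was at 0.689, 1.09 and 1.13 CPM in the controls and 1.68, 1.72 and 2.60 in the knockouts. The groups did not overlap (0.970 ± 0.244 against 2.00 ± 0.523, SD, n = 3), with a log2 fold change of 1.03 ± 0.39 (edgeR adjusted p = 0.86). Kcne4, a single-span subunit that inhibits Kv1 and KCNQ channels, was at 0.689, 0.544 and 0.701 CPM in the controls and 2.13, 0.859 and 0.934 in the knockouts. Knockout 1 lay far above the other embryos, and the log2 fold change of 1.00 ± 0.49 (edgeR adjusted p = 0.994) was 0.47 without it. With Xist as a covariate, a fit that rests largely on knockout 1, the fold change was 1.80. Kcnmb4, the most abundant auxiliary subunit, overlapped between the groups at 0.16 ± 0.19 (95% interval -0.26 to 0.59), and Kcne3, an epithelial partner of Kcnq1, was at -0.08 ± 0.29.

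**Figure D3:**
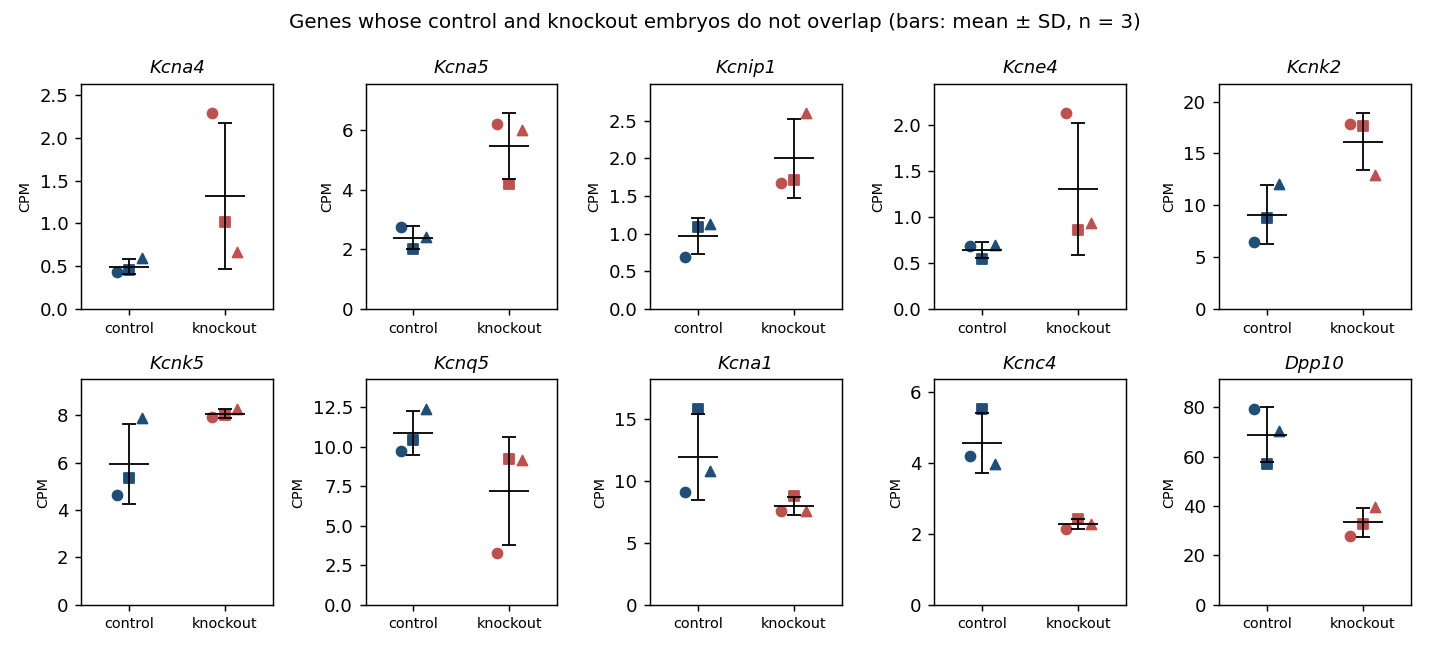
TMM-scaled CPM by embryo for the 9 potassium channel genes whose groups do not overlap, and for the Kv4 partner Dpp10. Circles, squares and triangles are embryos 1, 2 and 3, lines the mean and bars the SD (n = 3), each panel with its own axis from 0. In Kcna5, Kcnc4 and Dpp10 the groups lie well apart. In Kcnk5, Kcna1, Kcnq5, Kcnk2 and Kcna4 at least 1 control nearly meets a knockout.

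Genes of the same complexes that carry other names were read from a list of 17, of which 14 were tested, 6 positive and 8 negative. None passed the threshold by edgeR. The smallest adjusted p was that of Dpp10, a membrane protein that joins Kv4 pores with subunits such as Kcnip1 and speeds their gating. It was at 79.3, 57.0 and 70.2 CPM in the controls and 28.0, 32.7 and 39.5 in the knockouts. Every knockout lay far under every control (68.9 ± 11.2 against 33.4 ± 5.79, SD, n = 3). The log2 fold change was -1.04 ± 0.18 (95% interval -1.44 to -0.64) with an adjusted p of 0.113 by edgeR's quasi-likelihood test, and DESeq2 called it (log2 fold change -1.06, adjusted p = 6.61e-05). The adjusted p ran from 6.61e-05 to 0.395 over the alternatives, and was 0.0368 with a log2 fold change of -0.83 without both embryos numbered 1. In the same Kv4 complex Dpp6 was at 0.06 and Kcnip3 and Kcnip4 at 0.21 and 0.07, beside Kcnip1 at 1.03, and of these parts only Dpp10 had an adjusted p under 0.5.

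Other cation channel families, set beside these genes as a description, had no call either. Of 13 sodium channel genes 12 were tested, 1 positive and 11 negative, with a median of -0.23, where 50.3% of all genes were positive. Of the 12, 3 were separated, all lower in the knockouts (25%, against 9.84% of all genes separated either way). An unadjusted p under 0.05 by edgeR's quasi-likelihood test was found for 2, both lower (16.7%, against 4.77% of all genes). The family was not tested as a set. Of 22 calcium channel genes 16 were tested, 8 positive and 8 negative, with a median of -0.08, and 0 were separated or had such a p.

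Many potassium channel genes differed widely among the wild-type embryos. Control 1 was the lowest of the 6 embryos for 34 of 64 genes (53.1%), against 21.5% of all genes tested, and control 2 the highest for 21 (32.8% against 13.2%). Both held for 13 genes, or 20.3% against 6.35% of all genes, and for 7 of the 8 neuron markers (87.5%). Among the 13 were Kcnk10, Kcnc1, Kcnh5, Kcnmb2, Kcnj12, Kcnc2, Kcnab1, Kcnip4, Kcna2, Kcna6, Kcnh2 and Kcnd1, chosen by this order after their values were seen. Kcnc1 encodes Kv3.1 of fast-spiking neurons and ran from 0.313 CPM in control 1 to 6.49 in control 2, a ratio of 20.7. Kcnmb2, an auxiliary subunit of the large-conductance channel, differed 9.676-fold between those 2 embryos, Kcna2, an axonal Kv1 subunit, 3.147-fold and Kcnd1 1.508-fold. The sum over the neuron markers was likewise lowest in control 1 and highest in control 2, with 110.81 CPM in control 1, 917.26 in control 2, 525.73 in control 3 and 530.39 to 705.84 in the knockouts. The sum over 6 pericyte and smooth muscle markers had the same lowest and highest embryo (89.5 and 193.01 CPM), and that of 6 endothelial markers was highest in control 2 at 338.26 CPM. Gene by gene, the order held for 2 of 6 Schwann and glial markers (Foxd3 and Fabp7), 1 of 6 pericyte markers, 1 of 6 macrophage markers and none of the 8 epithelial or 6 endothelial ones. The part of any of these cell types in the levels was not tested.

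**Figure D4:**
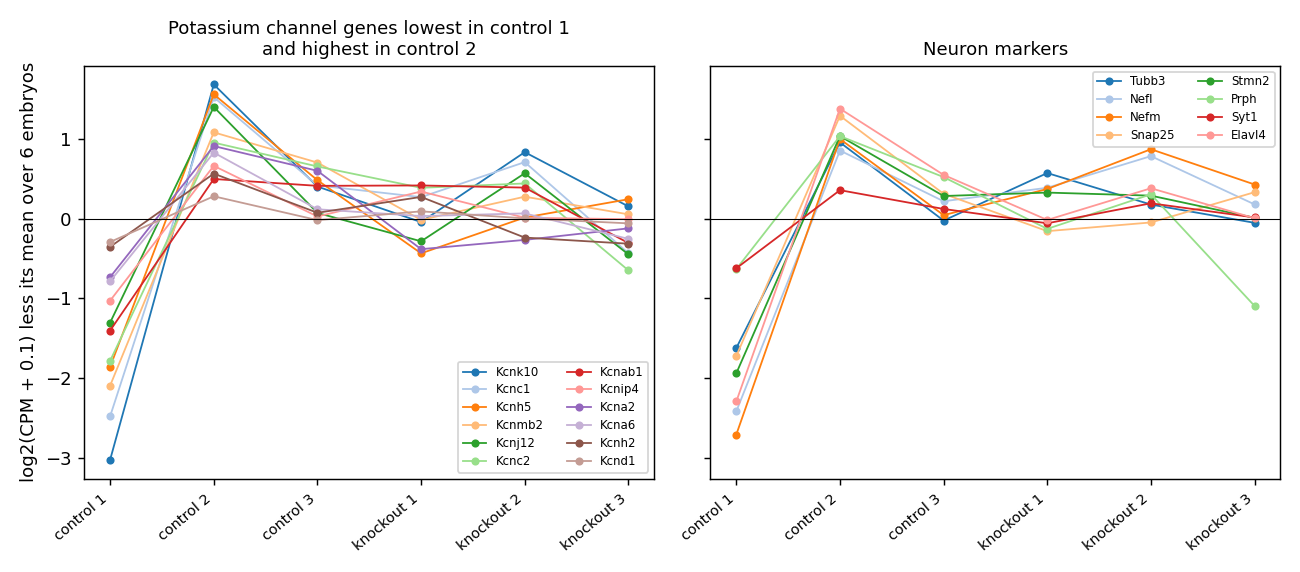
Level by embryo of 12 of the 13 potassium channel genes that are lowest in control 1 and highest in control 2 (left) and of the 8 neuron markers (right), as log2(CPM + 0.1) less each gene's mean over the 6 embryos. In both panels control 1 lies lowest and control 2 highest, except that Prph among the neuron markers is lowest in knockout 3, and the 3 knockouts lie between.

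The direction of the whole set moved with those 2 embryos. With control 1 left out, 20 genes were positive and 46 negative of 66 tested (median -0.23), and with control 2 left out 40 were positive and 24 negative of 64 (median 0.13). No potassium channel gene passed the threshold in either. Without control 1 the log2 fold change of Kcna2 went from -0.67 to -1.02 (edgeR adjusted p = 0.111) and that of Kcnmb2 from -0.31 to -0.80, while Kcnab1 turned from 0.14 to -0.26 and Kcnip4 from 0.07 to -0.27. These genes were picked above for having control 1 as their lowest embryo. That choice fixed the direction of their shift in advance, so the shift is no separate finding. The median over all genes was 0.01 in both fits. Control 1 differed from the others in several marker lists at once, and the part of each in these shifts was not tested.

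Transcript rows were tested one by one as well, since Esrp1 acts on splicing. The 88 genes had 130 rows, 19 of the genes having more than 1, and rows of a gene share most of their reads. None of the 98 rows tested passed the threshold (edgeR's quasi-likelihood test; 29 of all 19668 rows, or 0.147%, did). An unadjusted p under 0.05 was found for 10 rows (10.2%), against 4.73% of all rows, but these came from 6 genes, with 3 near-identical rows each from Kcnip1 and Kcnk2. In the authors' deposited table, too, 0 of the 130 rows had an FDR under 0.05. Of the 130, 17 rows of 11 genes had a p under 0.05 there, where 3.99% of all rows in that table did. Those 17 hold all 3 rows each of Kcnip1, Kcnk2 and Kcnk13, which are near-identical, so they are not separate findings. Kcna10, Kcnj3 and Kcnk13, also among the 11, had too few reads to be tested here. Among the 15 genes with at least 2 rows tested, fold changes of a gene's rows differed by a median of 0.03 and at most by 0.32, in Kcnd3, a Kv4 subunit, whose rows were at -0.12 and -0.45. The Kcnd3 row with fewer reads held 31.2%, 32.9% and 36.1% of the reads of the main row in controls 1, 2 and 3 and 22.1%, 28.2% and 30.3% in knockouts 1, 2 and 3. The shares did not overlap (33.4 ± 2.49% against 26.8 ± 4.26%, SD, n = 3; exact permutation p = 0.1, the smallest possible here). This ratio was chosen after its values were seen. Such shares did not overlap for 2 of the 34 further rows of these genes (5.88%), the other being a row of Kcnk2, against 7.14% over all genes, so their number does not exceed the background.

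The 9 separated genes could be placed in RefSeq on GRCm38. Kcna5 and Kcna1 lie on chromosome 6, Kcnc4 on 3, Kcna4 on 2, Kcnip1 on 11, Kcnk5 on 14, and Kcnk2, Kcne4 and Kcnq5 on 1, none of them on chromosome 4 with Esrp1. The spans of Kcnip1, Kcne4, Kcnk2 and Kcnq5 overlap other annotated genes, Kcnmb1 in the case of Kcnip1. Whether the read counting used strand is not given in the sources used here, so reads of such overlaps may not be told apart for these 4.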

How the data were processed

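The deposited read counts per transcript, 1 column for each embryo, are not normalised per the file headers. FPKM per embryo was deposited beside them, scaled by the authors for transcript length and library size per the file headers. The deposited log2 fold changes, p-values and FDR come from the authors' comparison of knockout with control over transcript rows, per the file headers. The submitters' processing notes name edgeR and mm10. Aligner and read counter: not given in the sources used here. Another 14 columns were not used.

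Of 28644 rows for 22869 symbols, the row with the most reads stood for a gene. Genes were kept with filterByExpr (minimum count 10), leaving 14717, with TMM scaling. The genotypes were compared by the two-sided quasi-likelihood F test of edgeR 4.0.16 under R 4.3.3, with Benjamini-Hochberg adjustment over all genes and a threshold of 0.05. A standard error is the absolute log2 fold change divided by the root of its F value. The steps were tested on simulated data.

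Alternatives were DESeq2 1.42.0, its size factor method in edgeR, no filter, summed rows, a replicate block, Xist as a covariate, and leaving out embryos. Genes named were those with separated groups, the most abundant and the lowest p of each class, ear-related genes and the partner with the smallest adjusted p. Members and lists, markers included, were chosen with earlier results of these data known. Coding sequences and coordinates are from GENCODE M21 and RefSeq on GRCm38. Results of some genes are not reported here.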

Additional observations from a re-analysis of the deposited data

How the results depend on the processing

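No potassium channel gene and no transcript row of one passed the threshold under any alternative run. Over all genes the count of 22 was 166 with DESeq2, 6 with the replicate block, 6 with Xist as a covariate, 159 without both embryos numbered 1, and 0 to 30 with 1 embryo left out (0 without control 3 or knockout 2, 30 without control 1). Among the partner genes DESeq2 called 1 and the fit without both embryos numbered 1 called 1, Dpp10 in each. With Xist as a covariate the sign turned for Kcnh2 (0.13), Kcnj16 (-0.31), Kcnj2 (-0.23), Kcnj8 (0.063), Kcnn2 (-0.14) and Kcnq3 (-0.74), and without both embryos numbered 1 for Kcnh6 (0.35), Kcnma1 (-0.40) and Kcnmb4 (-0.02). The fit with Xist rests largely on knockout 1 against the controls. The cause of these turns was not tested. Leaving out 1 embryo gave log2 ranges that cross 0 for Kcna6 (-0.56 to 0.22), Kcne3 (-0.24 to 0.047), Kcnh2 (-0.43 to 0.051), Kcnh6 (-0.19 to 0.18), Kcnj16 (-0.073 to 0.22), Kcnj2 (-0.016 to 0.22), Kcnj8 (-0.33 to 0.15), Kcnma1 (-0.10 to 0.46), Kcnn2 (-0.056 to 0.15) and Kcns3 (-0.36 to 0.15). Kcnq3 ran from 0.12 to 0.69 and Kcnmb4 from 0.05 to 0.28 over the same fits. The embryos share only a number across groups: deviations of same-numbered embryos correlated at 0.08, 0.18 and 0.03 over genes, and control 1 correlated best with knockout 3. Depth limits the low genes most, and every test rests on 3 embryos a group or fewer.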
